A study of Arabidopsis thaliana with 27 samples.

Results

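The comparison set RNA taken 84 h into tracheary element differentiation against RNA taken at 0 h, in cells of an Arabidopsis thaliana suspension culture. It used the 3 arrays titled 84 h and the 3 titled 0 h, which are 6 of the 27 arrays of the series, and every probe set on them other than the array maker's controls. Of 22810 probe sets, 64 were controls and 3 held an empty value, so 22743 were tested. The series followed 9 times from 0 to 96 h, each harvested in 3 independent time-courses with the letters A, B and C, and an 84 h array was paired with the 0 h array of its own letter. All arrays came from ecotype Col-0 and from a habituated culture, that is, one that grows without added hormones. Cells 7 days old were moved to fresh Murashige and Skoog medium with B5 vitamins, 3% sucrose, the auxin NAA at 6 µg/ml, the cytokinin BAP at 1 µg/ml and epibrassinolide, a brassinosteroid, at 4 µM. The labels describe the 0 h cells as undifferentiated and actively dividing, and the 84 h cells as laying down the secondary walls of tracheary elements. No culture moved to hormone-free medium was analysed here, so the hormones, the fresh medium and the time in culture cannot be told apart. The labels give no share of cells that had become tracheary elements, and in bulk RNA fewer cells of a type and less RNA per cell cannot be told apart.

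Tracheary elements are the water-conducting cells of xylem. They lay down a patterned secondary wall of cellulose, xylan and lignin inside the primary wall, and then die and empty themselves, so that the wall remains as a pipe. Xylan is built by glycosyltransferases in the Golgi and lignin is polymerised in the wall by laccases and class III peroxidases, while proteases stored in the vacuole take part in the clearing of the dying cell.

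Levels are given as the deposited log2 signal, on which a difference of 1 is a 2-fold change, and values are always listed in the order A, B, C. The median level of the 6 arrays lay between 0.88 and 0.99, so levels near 1 are near the bottom of the scale. Differences carry the standard error of a limma fit over all 27 arrays with the time-course as a block, and a probe set was called when its p-value, adjusted by the Benjamini-Hochberg method over all 22743 probe sets, was under 0.05. The platform annotation and the gene table gave 13353 genes with a probe set of their own, of which 1604 carry a symbol other than their locus number. The remaining genes are named by locus, with a family or a role only where the gene table or a gene list places that locus.

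The arrays of one time resembled each other more than arrays of the other time, with exceptions. Pearson correlations over the tested probe sets ran from 0.964 to 0.988 among the 84 h arrays and from 0.961 to 0.975 among the 0 h arrays, against 0.930 to 0.963 between the times. The signal of the GAPDH control at its 3′ end exceeded that at its 5′ end by 0.53, 3.74 and 1.5 at 0 h and by 0.60, 3.91 and 1.33 at 84 h. This measure of RNA integrity therefore stood apart in time-course B at both times, and its part in the differences was not tested beyond the fits without B and with the measure as a covariate.

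At 84 h, 806 probe sets were higher and 1282 were lower than at 0 h, 2088 of 22743 or 9.18% in all. The probe sets called higher were 3.54% of those tested and the probe sets called lower were 5.64%, and the median difference over all probe sets was 0.02. A difference of more than 1 was reached by 397 of those called higher and by 726 of those called lower, and a difference of more than 3 by 60 and 47. All 3 time-courses moved the same way in 798 of the 806 and in 1253 of the 1282. The values of the 2 times did not overlap in 676 and in 1123 of them, against 20.1% of all probe sets tested. The calls came from these same arrays, which favours agreement in sign and lack of overlap. Neither count is therefore independent support for the calls. Among the 13353 named genes, 438 were higher and 604 lower, which is 7.80% called. A further 1043 of the 2088 called probe sets have no gene in the annotation used here. With the 9 arrays of time-course B left out the count was 896, of which 330 were higher, and without the block for the time-course it was 1434. The probe sets called higher had median levels of 3.1, 2.8 and 2.9 at 0 h. These were 4.4, 4.2 and 4.4 at 24 h and 4.5, 4.2 and 4.5 at 84 h. Those called lower had medians of 3.2, 3.4 and 3.6 at 0 h, and of 1.8, 1.9 and 1.8 at 24 h. At 84 h the medians were 1.8, 1.8 and 1.8. Most of the shift in these medians was thus present at 24 h.

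Far fewer probe sets separated 84 h from 72 h and 96 h than from 0 h and 12 h. No probe set was called between 84 h and 72 h by limma, where 551 had an unadjusted p under 0.05, and none between 84 h and 96 h, where 1120 did. Between 84 h and 12 h, 4376 probe sets or 19.2% were called. The counts then fell to 1326 (5.83%) against 24 h, to 704 (3.1%) against 36 h and to 204 against 48 h, and 447 (1.97%) were called against 60 h. These comparisons share the 84 h arrays, and those with times other than 0, 48, 72 and 96 h were chosen after results were seen. Leaving out time-course B moved the count against 48 h to 27 and that against 60 h to 3.

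**Figure D1:**
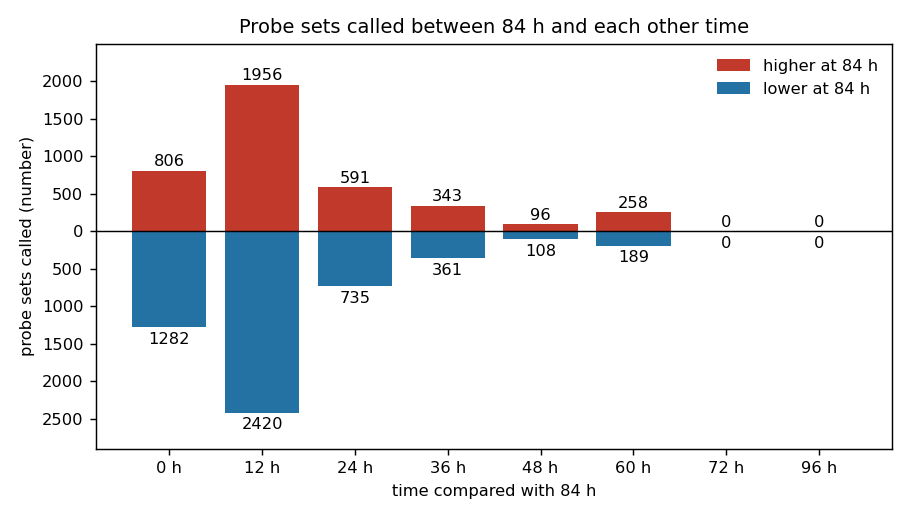
Number of probe sets called between 84 h and each of the 8 other times (x axis), with those higher at 84 h above the line and those lower below it (y axis, number of probe sets out of 22743). The bars reach 1956 and 2420 against 12 h and 806 and 1282 against 0 h, and both are 0 against 72 h and 96 h.

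The largest rises were in genes that were near the bottom of the scale at 0 h. AT5G51890, a locus on the list of class III peroxidases, had levels of 0.89, 0.65 and 0.73 at 0 h and 7.28, 5.94 and 6.73 at 84 h. Its 84 h values were all far above its 0 h values, and the difference of 5.89 ± 0.56, adjusted p = 1.38e-06 was the largest rise of a named gene. GH3.1, which encodes an enzyme that conjugates auxin to amino acids, stood at 0.33, 0.36 and 0.36 at 0 h and 4.87, 4.29 and 5.32 at 84 h, and the times did not overlap (4.48 ± 0.37, adjusted p = 2.27e-07). The subtilase SBTI1.1, a serine protease of the secretory pathway, stood at 1.61, 1.49 and 1.07 at 0 h and 5.38, 4.79 and 5.40 at 84 h (3.8 ± 0.32, adjusted p = 2.27e-07). AT1G59740, which the gene table lists as NPF4.3 of the nitrate and peptide transporter family, stood at 1.51, 0.71 and 1.01 at 0 h and 4.73, 4.97 and 5.01 at 84 h (3.82 ± 0.48, adjusted p = 3.31e-05). In each of these genes the lowest 84 h array lay at least 3 units above the highest 0 h array.

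The other 11 of the 15 genes with the largest rises carry a locus number only. AT2G04850 rose by 5.35, AT5G38610 by 5.34 and AT3G27200 by 5.25, and in all 3 the 84 h arrays lay between 5.68 and 6.76. AT2G15780 was the one gene of the 15 whose 0 h arrays all stood above 2, at 4.32, 2.66 and 2.54 at 0 h and 7.57, 6.82 and 7.13 at 84 h. The smallest rise among the 15 was that of AT2G43870, 3.37 ± 0.21, adjusted p = 4.8e-09. In 14 of the 15, the 84 h array of time-course B was the lowest of the 3.

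The largest falls included genes that had been among the stronger signals at 0 h. PRXR1, a class III peroxidase, stood at 6.85, 5.29 and 7.26 at 0 h and 1.56, 1.00 and 1.58 at 84 h, and its 84 h arrays were all near the bottom of the scale (−5.08 ± 0.35, adjusted p = 2.08e-08). OCT1, an organic cation and carnitine transporter, stood at 4.60, 8.47 and 8.57 at 0 h and 2.13, 3.09 and 2.97 at 84 h (−4.48 ± 0.82, adjusted p = 0.00124). Its 0 h array of time-course A was nearly 4 units below those of B and C, yet still above every 84 h array, and without time-course B the adjusted p was 0.0795. AT3G21770, a locus on the peroxidase list, was nearly the same in the 3 cultures at 0 h, at 7.65, 7.63 and 7.58 at 0 h and 3.93, 3.31 and 4.09 at 84 h, and fell in all of them (−3.85 ± 0.41, adjusted p = 3.86e-06).

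BGLU44, a beta-glucosidase, and FDH, the mitochondrial formate dehydrogenase, also fell to the bottom of the scale. BGLU44 stood at 3.84, 4.04 and 4.99 at 0 h and 0.72, 0.40 and 0.47 at 84 h (−3.76 ± 0.23, adjusted p = 4.8e-09), and FDH at 4.19, 3.56 and 5.14 at 0 h and 1.33, 0.88 and 1.16 at 84 h (−3.17 ± 0.31, adjusted p = 1.63e-06). In AT2G43530, A was low already at 0 h, with levels of 1.97, 5.79 and 6.88 at 0 h and 1.11, 0.94 and 1.05 at 84 h, so that the fall of −3.84 ± 0.71, adjusted p = 0.00134 rested on B and C, and the adjusted p without time-course B was 0.133. AT5G13140 fell by 4.60 and AT2G14900 by 3.15, the largest and the smallest falls among the 10 genes of this group with a locus number only, other than AT3G21770. AT2G14900, at 6.64, 9.17 and 9.11 at 0 h and 5.39, 4.87 and 5.23 at 84 h, was the one of the 15 that remained above 4 on every 84 h array.

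**Figure D2:**
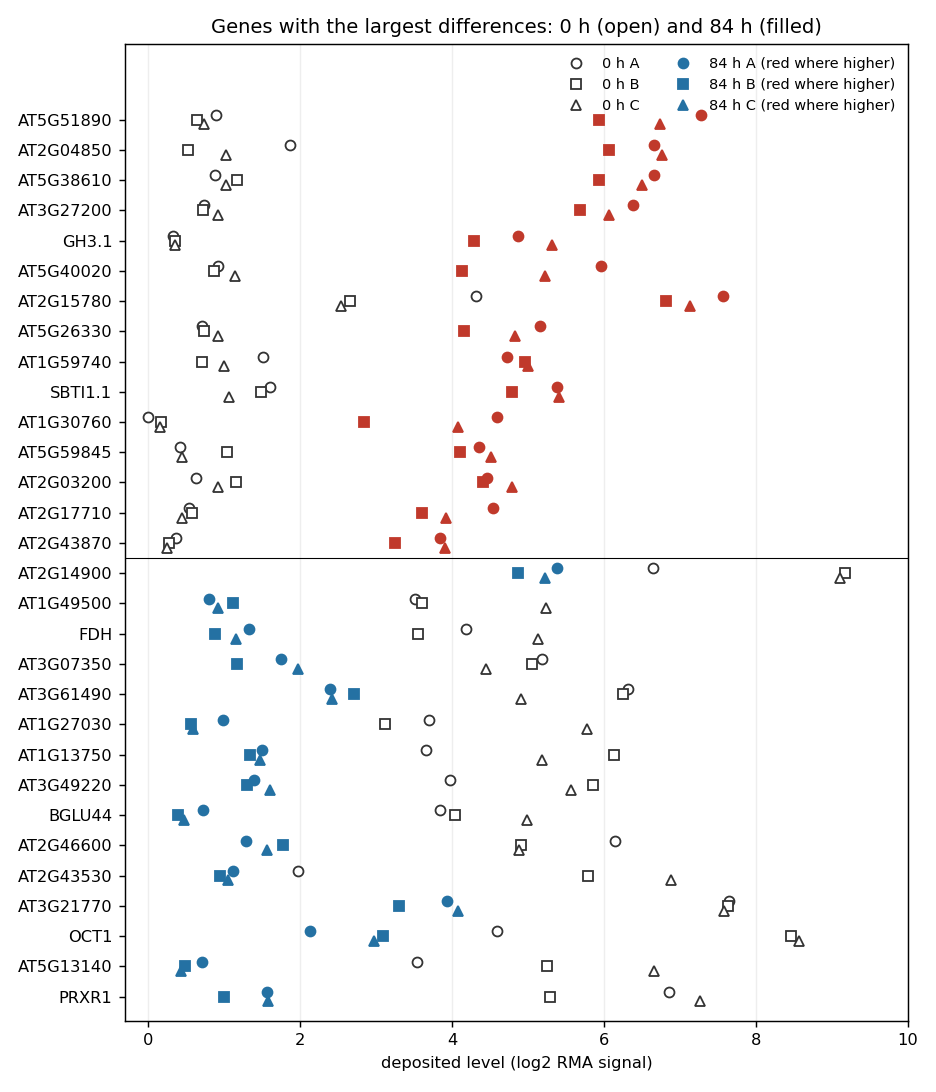
Deposited level (x axis, log2 signal) of the 15 named genes with the largest rises, above the line, and the 15 with the largest falls, below it, on each of the 6 arrays. Open symbols are 0 h and filled symbols 84 h, circles, squares and triangles are time-courses A, B and C, and in no gene do open and filled symbols overlap.

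Of the genes known to build secondary walls few were matched to a probe set, and those called at 84 h were all higher. Of 27 genes listed for secondary wall polysaccharide synthesis 4 were matched. Of these 2 rose, or 50% against the 3.54% of all probe sets called higher. IRX15, which is needed for normal xylan length, stood at 0.54, 0.73 and 0.59 at 0 h and 3.32, 2.31 and 3.07 at 84 h (2.28 ± 0.37, adjusted p = 0.000416). GUT2, also known as IRX10, a xylosyltransferase of the xylan backbone, stood at 0.88, 0.80 and 0.89 at 0 h and 1.86, 1.77 and 2.24 at 84 h (1.10 ± 0.28, adjusted p = 0.0146). Both rose on every time-course with no overlap. Without time-course B the adjusted p was 0.00855 for IRX15 and 0.167 for GUT2.

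Their close relatives did not pass the test. GUT1, the second xylosyltransferase of this pair, stood at 4.49, 4.34 and 4.33 at 0 h and 4.52, 4.14 and 4.45 at 84 h (−0.01 ± 0.17, adjusted p = 0.983). IRX15-L, the paralogue of IRX15, stood at 4.34, 4.72 and 4.36 at 0 h and 4.38, 3.65 and 3.78 at 84 h (−0.54 ± 0.24, adjusted p = 0.209), nearly level in A and lower in B and C. Of 18 genes listed for monolignol synthesis, the pathway to the building blocks of lignin, HCT and CCR2 were matched. HCT, the transferase at the entry to the pathway, stood at 5.14, 4.21 and 5.70 at 0 h and 5.45, 4.10 and 5.02 at 84 h (−0.16 ± 0.36, adjusted p = 0.885), and CCR2, a cinnamoyl-CoA reductase, was below 0.9 on all 6 arrays (0.17 ± 0.17, adjusted p = 0.684).

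A further list held 27 loci known in other work for being co-expressed with secondary wall genes, and 19 were matched. Of these 11 were called higher and 0 lower, which is 57.9%, against 3.54% of all probe sets, and the median difference was 1.81 against 0.02. The rise of 3 of them was known when the list was made, and without those 3 the count was 8 of 16, with a median of 0.96. AT5G40020 stood at 0.93, 0.87 and 1.15 at 0 h and 5.96, 4.13 and 5.22 at 84 h (4.12 ± 0.67, adjusted p = 0.00043), AT5G26330 at 0.71, 0.74 and 0.93 at 0 h and 5.16, 4.16 and 4.82 at 84 h (3.92 ± 0.62, adjusted p = 0.000307) and AT2G03200 at 0.63, 1.15 and 0.92 at 0 h and 4.46, 4.40 and 4.80 at 84 h (3.65 ± 0.58, adjusted p = 0.000318). Each was below 1.2 at 0 h and above 4 at 84 h on every array. The 8 loci that were not called had differences between −0.08 and 0.65. The count was 9 without the block and 6 without time-course B. Between 84 h and 48 h, 0 of the 19 were called higher and 0 lower, and the median difference was 0.17.

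Class III peroxidases moved in both directions. The family oxidises phenolics in the wall and in the vacuole, and its members stiffen walls or polymerise lignin depending on where they act. Of 73 loci 55 were matched, 4 were called higher and 5 lower, and 45 of the 55 were below 2 on all 6 arrays. The share called, 16.4%, compares with 9.18% of all probe sets. PRX52, one of the peroxidases of lignification, rose less in B than in A and C, at 0.61, 2.30 and 0.90 at 0 h and 4.62, 3.48 and 5.01 at 84 h (3.1 ± 0.62, adjusted p = 0.00268). Its 0 h value in B was already 2.30, and 84 h still exceeded it on every array. The fit to the 6 arrays alone gave an adjusted p of 0.0622.

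The peroxidases that fell differed in how alike the cultures were at 0 h. Beside PRXR1 and AT3G21770, AT2G41480, which the gene table lists as PRX25, stood at 5.17, 5.28 and 5.85 at 0 h and 2.54, 2.87 and 2.67 at 84 h (−2.74 ± 0.43, adjusted p = 0.000268), with no overlap. AT5G58390 stood at 0.34, 4.04 and 5.31 at 0 h and 0.42, 0.26 and 0.23 at 84 h, with the fall in B and C (−2.93 ± 0.70, adjusted p = 0.00972). Of the 5 genes listed as lignin laccases and peroxidases, AT5G51890 and PRX52 rose, or 40% against the 3.54% of all probe sets called higher. The others, AT5G66390, AT5G64120 and AT2G22420, had differences of 0.23, 0.13 and −0.48 that did not pass the test.

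**Figure D3:**
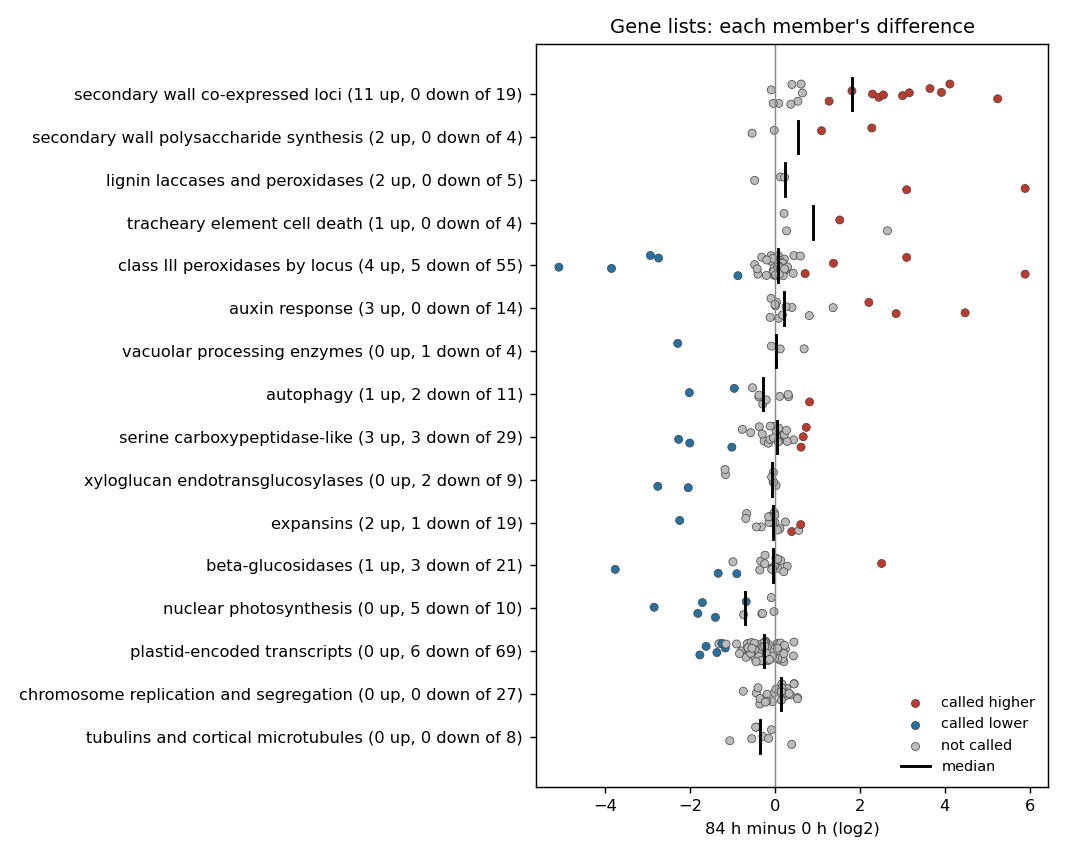
Difference between 84 h and 0 h (x axis, log2) of every measured member of 16 gene lists, with red points called higher, blue called lower and grey not called, and a black bar at the median of each list. The list of loci co-expressed with secondary walls has a median of 1.81 and no member called lower, peroxidases spread from −5.08 to 5.89, and no member of the chromosome list is called.

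Genes of cell death gave a mixed picture. Of 10 genes listed for tracheary element cell death 4 were matched and 1 was called higher, or 25% against 3.54% of all probe sets. This was AT4G04460, at 0.98, 1.45 and 1.10 at 0 h and 3.33, 2.30 and 2.48 at 84 h (1.53 ± 0.43, adjusted p = 0.0279), higher in every time-course but with an adjusted p of 0.0828 without the block. AT4G18425 was at or near 0 on all 0 h arrays and higher on all 84 h arrays, at 0.06, 0.00 and 0.00 at 0 h and 3.87, 1.93 and 2.22 at 84 h, and the difference did not pass the test (2.65 ± 1.00, adjusted p = 0.118). The limma fit to the 6 arrays alone gave it an adjusted p of 0.0308, and it was called in 2 of the 18 alternatives. AT2G14095 was below 0.5 on all 6 arrays. The carboxypeptidase scpl48 stood at 5.83, 7.59 and 7.51 at 0 h and 7.03, 7.69 and 7.03 at 84 h (0.28 ± 0.45, adjusted p = 0.827), with A rising and C falling.

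The vacuolar processing enzymes are cysteine proteases that mature other vacuolar proteins and take part in plant cell death. BETA-VPE, best known from seeds, fell in all 3 time-courses, at 5.01, 4.64 and 4.27 at 0 h and 1.98, 2.65 and 2.44 at 84 h (−2.29 ± 0.35, adjusted p = 0.000224). GAMMA-VPE, the form of vegetative tissue, stood at 5.17, 5.20 and 6.31 at 0 h and 5.59, 5.62 and 5.85 at 84 h (0.13 ± 0.19, adjusted p = 0.815), and its groups overlapped. ALPHA-VPE and DELTA-VPE stayed below 1.4 on all 6 arrays, with differences of 0.69 and −0.08 that were not called.

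Among 11 genes of autophagy, the pathway that delivers cytoplasm to the vacuole, the 3 that were called are all forms of the ATG8 protein of the autophagosome membrane. ATG8F fell, at 6.39, 6.69 and 6.10 at 0 h and 4.22, 4.78 and 4.14 at 84 h (−2.01 ± 0.27, adjusted p = 5.03e-05), and APG8H fell, at 6.30, 6.32 and 6.26 at 0 h and 5.49, 5.20 and 5.33 at 84 h (−0.95 ± 0.16, adjusted p = 0.000533, or an adjusted p of 0.0628 without time-course B). ATG8D rose, at 6.90, 6.29 and 6.65 at 0 h and 7.67, 7.19 and 7.43 at 84 h (0.82 ± 0.16, adjusted p = 0.00288, or an adjusted p of 0.057 without the block). ATG8D was not called without time-course B either (0.0641). The list held 9.09% called higher and 18.2% called lower, against 3.54% and 5.64% of all probe sets, and its median was −0.28. Of 29 serine carboxypeptidase-like genes 3 were called higher and 3 lower, or 10.3% each against the same shares of all probe sets. The falls were larger, with −2.27 for scpl23, −2.0 for scpl35 and −1.01 for scpl26, against 0.74 for SCPL45, which at 0.113 was not called without the block. Without time-course B scpl35 was not called (0.0804).

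Auxin-responsive genes rose where they were called. Of 14 measured, 3 were called higher and 0 lower, which is 21.4% against 3.54% of all probe sets called higher, and 9 were below 2 on all 6 arrays. GH3.3, like GH3.1 an auxin-conjugating enzyme, stood at 1.03, 0.78 and 0.76 at 0 h and 3.75, 3.69 and 3.70 at 84 h (2.85 ± 0.22, adjusted p = 1.11e-07), and its 84 h arrays differed among themselves by less than 0.1. IAA29, a repressor of auxin response that auxin itself induces, stood at 0.75, 0.47 and 0.57 at 0 h and 2.81, 3.04 and 2.59 at 84 h (2.21 ± 0.48, adjusted p = 0.00472, or an adjusted p of 0.126 without time-course B). IAA30 had 84 h values of 2.25, 2.12 and 2.17, all above its 0 h values, and did not pass the test (1.37 ± 0.60, adjusted p = 0.19). One member each was measured for the cytokinin and the brassinosteroid lists, and neither was called.

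CLE41 encodes the peptide TDIF, which in stems is made by phloem, keeps procambium dividing and holds back xylem differentiation. It stood at 3.70, 5.90 and 5.79 at 0 h and 2.71, 2.29 and 2.47 at 84 h (−2.64 ± 0.52, adjusted p = 0.00221). The fall was 0.98 in A and over 3 in B and C, the 0 h array of A being the lowest of the 3, and without time-course B the adjusted p was 0.136. CLE44, which encodes the same peptide, was below 0.6 on all arrays (0.24 ± 0.13, adjusted p = 0.349). The gibberellin receptor GID1A stood at 3.13, 1.39 and 2.75 at 0 h and 1.84, 0.68 and 1.48 at 84 h (−1.09 ± 0.27, adjusted p = 0.0115), falling in every time-course while its values at the 2 times overlapped, and without the block its adjusted p was 0.0639. GID1A was the 1 gene called of 7 for gibberellin perception, or 14.3% lower against 5.64% of all probe sets.

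Genes that loosen the primary wall included members called in each direction. Of 9 xyloglucan endotransglucosylases, which cut and rejoin the xyloglucan tethers of growing walls, 2 were called lower and 0 higher, or 22.2% lower against 5.64% of all probe sets, and 5 were below 2 on all arrays. XTH19 stood at 8.85, 8.24 and 8.24 at 0 h and 5.58, 5.52 and 5.97 at 84 h (−2.76 ± 0.67, adjusted p = 0.0109, or an adjusted p of 0.133 without time-course B) and XTH16 at 5.29, 5.27 and 5.95 at 0 h and 3.3, 3.53 and 3.57 at 84 h (−2.04 ± 0.21, adjusted p = 2.55e-06). Of 19 expansins and related proteins, the expansin-like EXLA1 fell, at 6.96, 7.17 and 7.21 at 0 h and 4.59, 5.21 and 4.80 at 84 h (−2.24 ± 0.54, adjusted p = 0.0103, or an adjusted p of 0.101 without time-course B), while EXPB2 and EXPA15 were called higher at levels below 1.5. Of this family 5.26% were called lower and 10.5% higher, against 5.64% and 3.54% of all probe sets. EXPB2 and EXPA15 lost the call without the block, at 0.0613 and 0.0581, and without time-course B, at 0.0522 and 0.172. EXPA4, the strongest of the family at 8.11 or more on every array, had a difference of −0.32 (adjusted p = 0.733).

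Among 15 GH9 cellulases 1 was called higher and 0 lower, or 6.67% higher against 3.54% of all probe sets. This was GH9B13, which rose from an already high level, at 5.37, 6.65 and 6.05 at 0 h and 7.44, 8.04 and 8.12 at 84 h (1.84 ± 0.38, adjusted p = 0.00322). Beta-glucosidases, which release sugars from a range of glycosides, moved in both directions, with 3 called lower and 1 higher of 21, or 14.3% and 4.76% against 5.64% and 3.54% of all probe sets. BGLU28 rose, at 0.00, 0.73 and 0.38 at 0 h and 2.0, 3.99 and 2.67 at 84 h (2.51 ± 0.39, adjusted p = 0.000264, or an adjusted p of 0.0594 without time-course B), and BGLU16 fell, at 1.23, 2.19 and 1.99 at 0 h and 0.25, 0.49 and 0.68 at 84 h (−1.33 ± 0.18, adjusted p = 5.47e-05). Cortical microtubules guide cellulose deposition, and of 8 tubulin and microtubule genes none was called, with a median difference of −0.36. TUA6, the strongest of them, stood at 9.51, 8.02 and 8.97 at 0 h and 9.84, 8.28 and 9.58 at 84 h (0.40 ± 0.27, adjusted p = 0.477), and KINESIN-13A, which shapes the pits of secondary walls, at 4.20, 4.68 and 4.35 at 0 h and 4.39, 4.57 and 4.67 at 84 h (0.13 ± 0.18, adjusted p = 0.786). At an unadjusted p under 0.05, 2 of the 8 tubulin and microtubule genes passed, and so did 4589 of all 22743 probe sets.

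Genes of chromosome replication and segregation did not separate the 2 times. None of 27 was called by limma, against 9.18% of all probe sets, and the median difference was 0.15. An unadjusted p under 0.05 was found in 5 of the 27, and in 4589 of all 22743 probe sets. The mitotic kinase AUR1 stood at 5.44, 4.65 and 5.51 at 0 h and 5.58, 5.05 and 5.51 at 84 h and AUR2 at 5.10, 4.53 and 4.55 at 0 h and 5.08, 4.71 and 5.49 at 84 h, with overlapping values and adjusted p-values of 0.827 and 0.535. TOPII, the topoisomerase that untangles chromosomes, stood at 2.99, 4.05 and 3.02 at 0 h and 2.72, 4.09 and 2.57 at 84 h (−0.22 ± 0.32, adjusted p = 0.798), higher in B than in A and C at both times. UBC19, a ubiquitin-conjugating enzyme of mitosis, was the member nearest to the threshold, at 5.66, 4.32 and 4.72 at 0 h and 4.34, 3.97 and 4.15 at 84 h (−0.74 ± 0.24, adjusted p = 0.0595). The missing call does not show that the levels were equal.

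Among 7 histone genes 1 was called higher and 2 lower, or 14.3% and 28.6% against 3.54% and 5.64% of all probe sets. The linker histone HIS1-3, known in Arabidopsis for its response to drought, fell, at 3.02, 3.22 and 3.73 at 0 h and 0.51, 1.47 and 1.09 at 84 h (−2.30 ± 0.28, adjusted p = 2.35e-05). HON4, another linker histone relative, fell by 0.89 to 4.24, 4.06 and 4.32, with an adjusted p of 0.106 without time-course B. The core histone HTB1 was called higher, at 5.72, 4.51 and 5.74 at 0 h and 6.20, 5.82 and 6.32 at 84 h (0.79 ± 0.24, adjusted p = 0.0436), though most of the difference lay in B, and the adjusted p was 0.192 without the block.

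Of 10 nuclear genes of photosynthesis, 5 were called lower and 0 higher. This is 50% called lower, against 5.64% of all probe sets, and none of the 10 had a difference above 0. However, 4 of the 10 were below 2 on all 6 arrays. CaS, a thylakoid calcium sensor, stood at 2.88, 3.83 and 3.50 at 0 h and 0.65, 0.38 and 0.65 at 84 h and had the smallest adjusted p of any named gene that fell (−2.84 ± 0.17, adjusted p = 3.69e-09). PSBY stood at 3.14, 3.38 and 3.65 at 0 h and 1.33, 1.92 and 1.81 at 84 h (−1.71 ± 0.25, adjusted p = 0.000182) and PSBW, like PSBY a small subunit of photosystem II, at 1.98, 2.66 and 3.00 at 0 h and 1.07, 0.56 and 0.57 at 84 h (−1.81 ± 0.28, adjusted p = 0.000247). In all 3 genes every 84 h array lay below every 0 h array. PSAN of photosystem I fell by 1.40, with 0 h values from 1.22 in A to 3.20 in C. Without time-course B, 3 of the 10 were called and PSAN was not (0.0975). Between 84 h and 48 h, 0 of the 10 were called higher and 0 lower, and the median difference was 0.12.

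Transcripts encoded in the plastid itself gave 6 called lower and 0 higher of 69. This is 8.70% called lower, against 5.64% of all probe sets, and the median was −0.26. On all 6 arrays 30 of the 69 were below 2. psaB stood at 4.07, 5.68 and 6.08 at 0 h and 2.14, 4.51 and 4.32 at 84 h (−1.62 ± 0.40, adjusted p = 0.0119) and petB at 2.70, 3.92 and 4.29 at 0 h and 1.49, 2.59 and 3.1 at 84 h (−1.25 ± 0.34, adjusted p = 0.0235). Each fell by over 1 in every time-course, while the cultures differed by more than that at one time, so that the 2 times overlapped. No member was called without the block, where the adjusted p was 0.476 for psaB and 0.355 for petB, and none without time-course B.

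Markers of other cell types were few. The 2 root hair genes matched were below 0.8 on every array and the 1 epidermis gene below 1.1, and none of 6 phloem genes was matched.

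Transporters included some of the strongest changes. Of 10 genes of nitrogen transport and assimilation 3 rose and 1 fell, or 30% and 10% against 3.54% and 5.64% of all probe sets. AT1G33440, listed as NPF4.4, stood at 1.85, 1.56 and 1.14 at 0 h and 3.67, 3.83 and 3.76 at 84 h (2.23 ± 0.33, adjusted p = 0.000166), and AT2G26690, listed as NPF6.2, at 1.63, 2.67 and 2.87 at 0 h and 0.53, 0.44 and 0.53 at 84 h (−1.89 ± 0.25, adjusted p = 5.44e-05). The nitrate transporter NRT2.5 was called higher on A and C, with 1.35, 1.17 and 1.42 at 0 h and 2.90, 1.32 and 2.70 at 84 h (0.99 ± 0.26, adjusted p = 0.0166), B overlapped with 0 h, and the 6 arrays alone gave an adjusted p of 0.147. OCT4 fell as OCT1 did, at 1.75, 2.57 and 2.59 at 0 h and 0.28, 0.64 and 0.47 at 84 h (−1.84 ± 0.25, adjusted p = 5.85e-05). Of 3 organic cation transporters 2 were called lower, or 66.7% against 5.64% of all probe sets. SWEET17, a fructose carrier of the vacuole, stood at 3.77, 3.72 and 4.84 at 0 h and 2.74, 2.71 and 2.47 at 84 h (−1.47 ± 0.30, adjusted p = 0.00288, or 0.0683 from the 6 arrays alone), and the vacuolar proton pump subunit VHA-A2 at 3.51, 5.06 and 4.38 at 0 h and 2.32, 3.08 and 2.57 at 84 h (−1.66 ± 0.26, adjusted p = 0.000267). SWEET17 was the 1 gene called of 17 for sugar transport and sucrose cleavage. This is 5.88% called lower, close to the 5.64% of all probe sets, and the median of that list was 0.11. VHA-A2 was the 1 called of 4 proton pump genes, or 25%.

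In central metabolism changes were smaller. ACLA-2, a subunit of the cytosolic ATP-citrate lyase that makes acetyl-CoA, stood at 4.47, 3.97 and 3.92 at 0 h and 5.84, 5.24 and 5.69 at 84 h (1.47 ± 0.39, adjusted p = 0.0207, or an adjusted p of 0.0757 without the block). The isocitrate dehydrogenases cICDH and ICDH fell by 0.59 and 0.99, to 9.14, 8.98 and 9.17 and to 1.18, 1.06 and 1.09. The remaining 13 of the 16 genes of this group were not called. The group held 6.25% called higher and 12.5% called lower, against 3.54% and 5.64% of all probe sets. Without time-course B the adjusted p was 0.143 for ACLA-2, 0.16 for cICDH and 0.0924 for ICDH. Hsp70-2, a cytosolic chaperone, rose by 1.03 to 7.52, 7.72 and 7.71 (adjusted p = 0.0252, or 0.123 without time-course B). It was the 1 called of 6 heat shock genes, or 16.7% against 3.54% of all probe sets called higher.

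Against 48 h, 204 probe sets were called, 0.897% of those tested, with 96 higher at 84 h and 108 lower. Without time-course B 27 were called, and with the GAPDH measure as a covariate 261. The 3′ end of GAPDH exceeded its 5′ end by 0.42, 1.39 and 1.11 at 48 h and by 0.60, 3.91 and 1.33 at 84 h. This measure of RNA integrity thus differed between the 2 times in B, and its part in the differences was not tested further. The genes with the largest falls since 48 h were near the bottom of the scale at 0 h as well. AT1G09390 stood at 3.97, 3.98 and 4.15 at 48 h and at 0.32, 0.45 and 0.76 at 84 h, a difference of −3.52 ± 0.27 (adjusted p = 6.26e-07). AT2G34060, a locus of the peroxidase list, went from 5.21, 5.40 and 5.27 to 1.24, 1.31 and 1.23 (−4.04 ± 0.60, adjusted p = 0.001). PRX52 was lower at 84 h than at 48 h, where it had stood at 6.79, 6.91 and 7.45 (−2.68 ± 0.62, adjusted p = 0.0438, or 0.0627 without the block), and it was higher at 84 h than at 0 h. Its differences from 48 h were −2.16, −3.43 and −2.44 in A, B and C. Neither AT1G09390 nor AT2G34060 was called between 84 h and 0 h, where their differences were 0.24 and 0.45.

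Genes with the largest rises since 48 h included several that were high at 0 h. AT3G03150 stood at 6.54, 6.83 and 7.26 at 0 h and 4.18, 4.06 and 4.45 at 84 h and at 0.56, 0.55 and 1.04 at 48 h, so it was called higher than at 48 h (3.52 ± 0.66, adjusted p = 0.00891) and lower than at 0 h (−2.64 ± 0.66, adjusted p = 0.0129). AT1G23140 stood at 5.08, 5.72 and 5.22 at 0 h and 3.81, 4.23 and 3.94 at 84 h and at 1.22, 0.93 and 1.5 at 48 h, again above 48 h (2.78 ± 0.33, adjusted p = 0.000118) and below 0 h (−1.35 ± 0.33, adjusted p = 0.0123). Without time-course B neither was called against 0 h, at adjusted p-values of 0.164 and 0.0863. AT1G63310 went the other way from these, being at or below 0.71 at both 0 h and 48 h and between 3.55 and 3.98 at 84 h. The antimicrobial-type peptide gene LCR68 had means of 10.54 at 0 h, 5.71 at 48 h, 3.83 at 60 h and 7.98 at 84 h.

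Several genes of the wall group had passed their highest mean by 84 h. The mean of AT5G51890 was 5.26 at 48 h, 7.18 at 72 h and 6.65 at 84 h. For IRX15 the means were 1.88 at 48 h, 3.34 at 72 h and 2.90 at 84 h, and for GUT2 they were 1.25, 2.65 and 1.96. None of these steps was called between 72 h and 84 h. Against 60 h, the time labelled as the start of wall deposition, SBTI1.1 was lower at 84 h by 1.93 (adjusted p = 0.00259). PRX52 was lower by 2.52 (adjusted p = 0.0393). Of the 19 co-expressed loci 1 was lower than at 60 h and 0 were higher, and their median difference was −0.71. Of all 22743 probe sets, 189 were lower and 258 higher than at 60 h, 447 or 1.97% in all. With time-course B left out only 3 probe sets were called against 60 h. Neither SBTI1.1 nor PRX52 was then called, at adjusted p-values of 0.317 and 0.502.

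**Figure D4:**
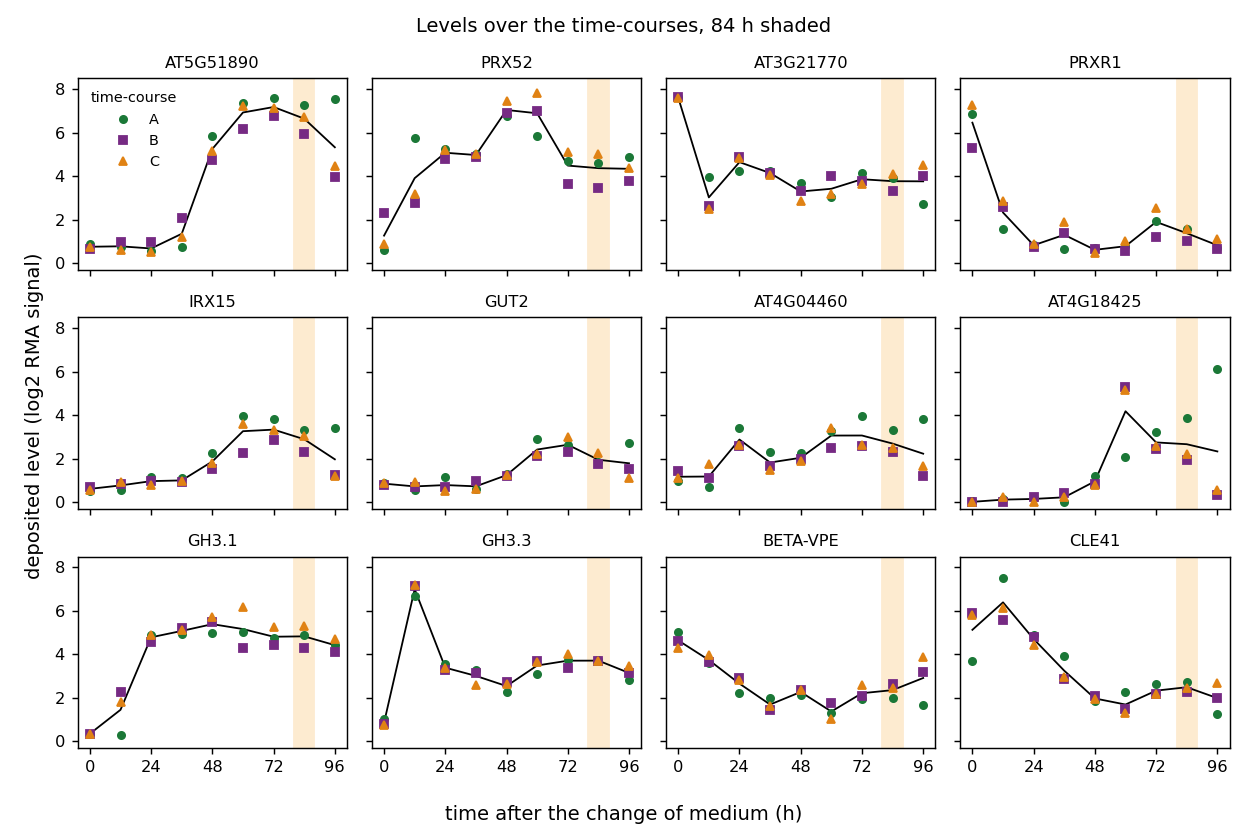
Deposited level (y axis, log2 signal) of 12 genes at the 9 times (x axis, hours after the change of medium), with each time-course as its own symbol, the mean of the 3 as a line and 84 h shaded. AT5G51890 is below 1 on each 0 h array and near 6 or above at 84 h, and at 96 h its value in A is 7.58 against 3.96 in B and 4.47 in C.

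Between 84 h and 96 h the time-courses parted. With all 3, limma called no probe set. With both arrays of A left out it called 121, of which 70 were higher and 51 lower at 96 h, and with only the 96 h array of A left out it called 153. Leaving out arrays of B or C instead gave from 0 to 1 call. The genes below are described with no test, since the parting of A was seen first. AT5G51890 stood at 7.28, 5.94 and 6.73 at 84 h and at 7.58, 3.96 and 4.47 at 96 h, lower than at 84 h in B and C and not in A. AT3G27200 went from 6.38 to 8.19 in A, from 5.68 to 3.28 in B and from 6.06 to 3.66 in C. IRX15 stood at 3.43 in A and at 1.28 and 1.23 in B and C at 96 h.

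LCR68 and AT3G03150, both high at 0 h, went the opposite way in B and C. LCR68 stood at 8.38, 10.38 and 10.43 at 96 h and AT3G03150 at 1.97, 6.12 and 6.33. PRXR1, also high at 0 h, was at 0.70, 0.67 and 1.11 at 96 h, below its 84 h value in each time-course. In A neither LCR68 nor AT3G03150 was higher than at 84 h by more than 0.1. At 84 h itself A did not stand apart in these 2 genes, since LCR68 was 8.33, 7.80 and 7.80 and AT3G03150 was 4.18, 4.06 and 4.45. The comparison of 84 h with 0 h gave 1520 calls when the 84 h array of A was left out.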

How the data were processed

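Per the labels, total RNA extracted with Trizol was turned into biotinylated cRNA and read on Affymetrix arrays, 1 array for each of 9 times in 3 time-courses. The values are the authors' deposited log2 signals per probe set, summarised with RMA per the submitters' processing notes. The log base is not stated there and was taken as 2, which the range of the values fits. A genome build is not given in the sources used here, and no coordinates are printed. No value was normalized again.

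From these values a model with a term for each time and a block for the time-course was fitted to all 27 arrays with limma 3.58.1 in R 4.3.3, after a test on simulated data. The letters were taken as pairs because the series ties each to an independent time-course: deviations from the means of the times correlated with a median of 0.25 over 108 pairs of the same letter and of −0.12 over 216 pairs of different letter and time, and by 0.33, 0.62 and 0.21 between 84 h and 0 h in A, B and C. Deviations were taken from the mean of the 3 arrays of each time. The negative median therefore follows largely from that of the same letter and is no separate support for the pairing. No p-value reflects more than the spread between 3 cultures. A gene with several probe sets was read from the one with the strongest average signal. Of the 22743 probe sets tested, 13511 had 1 gene in the platform annotation, 8729 were not in it, and those with several genes were not named. Array data carry no read depth, and 3 arrays a time limit the precision.

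The genes named are the 15 largest rises and 15 largest falls among called genes that moved alike in all time-courses (5 and 5 for other pairs of times), up to 4 called members of each gene list by size of change, and every measured member of the wall, lignin, xylem factor, cell death, vacuolar protease and TDIF lists. The comparison and the lists were chosen with earlier results of these data known, some lists after the annotation was seen, and 14 symbols that stand for unrelated genes were taken off. Only the list of co-expressed loci was counted again without loci whose rise was known. The shares of the lists are therefore descriptions and no independent support. AT5G58390, IAA30, EXPA4, TUA6, AUR1, AUR2, TOPII and UBC19 were named after their values were seen. Promoters and other sequences were not analysed here. Alternatives covered the block, scaling, dim probe sets, array weights, the prior of the variance, the GAPDH measure, and leaving out arrays.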

Additional observations from a re-analysis of the deposited data

How the results depend on the processing

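The count of calls between 84 h and 0 h, 2088 with the block for the time-course, was 1434 without it, 1294 from the 6 arrays alone, 3140 with array weights and 896 without time-course B, and it ran from 970 to 1949 when single arrays or pairs of one letter were left out (970 without both arrays of C, 1170 without both of B, 1385 without the 0 h array of C). Centring the arrays, quantile normalization, leaving out dim probe sets, the GAPDH covariate and a trended, robust prior gave 2063, 2151, 1871, 2588 and 1976. The 204 calls between 84 h and 48 h became 123 without the block, 444 from the 6 arrays, 992 with array weights and 27 without time-course B, with a range from 60 to 165 when arrays or pairs were left out (60, 75 and 103 without both arrays of B, C and A). Between 84 h and 72 h the 6 arrays alone gave 2 calls, and the block changed nothing. Between 96 h and 84 h array weights gave 107, and leaving out arrays gave from 0 to 153, with 153 without the 96 h array of A and 121 without both arrays of A. Fits that leave out arrays hold fewer samples, and a lone pair is then assumed to vary like the other times. Of the 128 genes named by the rule, 106 were called, and 43 of these were called under all 18 alternatives, and 2 more, BGLU16 and OCT4, under each of the 17 that kept their probe sets. No called gene changed direction under any of them. Being called on these same arrays favours a kept direction, so this is no independent support for the calls. Without the block 22 lost the call, without time-course B 44, with quantile normalization 6 and with the GAPDH covariate 0. AT1G66810, the one xylem factor matched, had a difference of 0.23 and was not called. The gene lists match few of the known wall genes, and levels near the bottom of the scale cannot show a fall.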

Other observations

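Small families beyond the wall and death genes also held called members. Some of their shares were near the 3.54% and 5.64% of all probe sets called higher and lower, and others were above them. Of 25 genes of the actin network, 4.00% called in each direction, the LIM-domain proteins, which bundle actin filaments, were the ones called, with PLIM2b higher by 2.0 ± 0.35 (adjusted p = 0.000813) and WLIM1 lower, with a difference of −1.39 ± 0.25 (adjusted p = 0.00113, or 0.0686 without the block). PLIM2b stood at 1.13, 2.30 and 1.31 at 0 h and at 3.17, 3.47 and 4.09 at 84 h. Of 11 LSM and splicing genes 2 were called higher, LSM6A and LSM3A, or 18.2% against 3.54% of all probe sets. Neither was called without the block, at adjusted p-values of 0.0779 and 0.0886, or without time-course B, at 0.183 and 0.11. Of 48 UDP-glycosyltransferases, which attach sugars to hormones and phenolics, 3 were called lower and 0 higher, or 6.25% lower, close to the 5.64% of all probe sets, with UGT85A2 going from 2.56, 3.34 and 4.22 to 1.85, 1.37 and 1.46. Of 13 glutathione transferases GSTL3 and GSTU27 were called lower, or 15.4% against 5.64% of all probe sets, with differences of −1.56 and −2.01. Of 14 defensin and pathogenesis-related genes 2 were called lower, or 14.3% against 5.64% of all probe sets. Both were without a call when time-course B was left out, at 0.0885 for LCR68 and 0.344 for PDF1.4. LCR68 went from 9.89, 10.79 and 10.93 to 8.33, 7.80 and 7.80, and PDF1.4, at 0.98, 3.85 and 5.27 at 0 h, rose by 0.65 in A and fell by over 2 in B and C.

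AT2G31110, listed as TBL40 of the family that acetylates wall polysaccharides, has 2 probe sets that differ. One rose by 1.78 (adjusted p = 0.0184, or 0.132 without time-course B), and the other had a difference of 0.30 that did not pass the test (adjusted p = 0.51). Of 23 genes of this family 1 was called higher, or 4.35%, near the 3.54% of all probe sets.

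The 1282 probe sets called lower are a set chosen for its fall from 0 h. Among them the 0 h array of time-course A was the lowest of the 3 in 573, or 44.7%. That share was 34.6% for B and 20.7% for C. The 0 h array of A was lower than both others by more than 1 in 112, against 37 for B and 12 for C. OCT1, AT2G43530, CLE41 and PDF1.4 are examples described above. Among the 806 called higher, the 0 h array of A was the highest of the 3 in 415, or 51.5%. That share was 24.4% for B and 24.1% for C. It was the highest by more than 1 in 36, against 7 for B and 5 for C. Such shares over all probe sets were not counted.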
